A study of Mus musculus with 18 samples.

Results

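The genes described here are 48 genes of striated muscle and its sarcomere, looked up by symbol in count tables of mouse medullary thymic epithelial cells (mTECs) that list 49585 genes for the Aire and Fezf2 experiments and 21969 genes for the Chd4 experiment. All 48 symbols were found in each table. They comprise 8 Z-disc and intermediate filament genes, 8 troponins, 7 myosin heavy chains, 6 calcium-handling genes, 5 myosin light chains, 5 transcription factors, 4 thin filament genes, 2 myosin-binding protein C genes, 2 genes of energy and oxygen supply, and 1 caveolin. The sarcomere is the contractile unit of skeletal and cardiac muscle: myosin thick filaments pull on actin thin filaments anchored at the Z-disc, and the troponin complex on the thin filament opens the binding sites when calcium is released from the sarcoplasmic reticulum. Most of its components exist as fast skeletal, slow skeletal or cardiac, and developmental isoforms encoded by separate genes. mTECs transcribe many such tissue-restricted genes and present their products to developing T cells. AIRE is a nuclear factor known to promote part of this expression, FEZF2 is a transcription factor known to promote another part, and CHD4 is the ATPase of the NuRD chromatin remodelling complex. A small population of muscle-like thymic cells has long been known by its myogenin and desmin.

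SMART-seq v4 libraries from total RNA of sorted mTECs were sequenced for 6 groups of 3 libraries. Aire KO libraries (genotype AireKO, strain C57BL/6) stood beside WT libraries of the same strain, and Fezf2 KO libraries (genotype Fezf2KO, strain C57BL/6, named Fezf2cKO in the count columns) stood beside a second set of WT libraries of that strain. Chd4 cKO libraries came from Chd4 flox/flox mice that carried Foxn1-Cre on the C57BL/6x129P2 background, beside libraries from Chd4 flox/flox mice of the same background as controls. Foxn1 is active throughout the thymic epithelium, so deletion by this Cre is not limited to medullary cells. The labels name neither the alleles of the Aire and Fezf2 mice, nor ages, nor how many animals stand behind a library. The p-values therefore measure only the spread between these libraries. Libraries are called A, B and C within a group, because the count columns name groups but not replicate numbers.

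Exon reads per library ranged from 3571570 to 17220157, and the deepest was Chd4 cKO library B. Levels are given in CPM, exon counts scaled to library size with the trimmed mean of M values, and changes as log2 fold changes with their standard errors (SE). The targeted transcript fell in 2 of the 3 knockouts. Fezf2 had 9.09, 8.44 and 23.4 CPM in Fezf2 KO libraries against 652.6, 734.8 and 569.9 CPM in their WT (edgeR adjusted p = 0.000169). Chd4 had 24.6, 27.5 and 30.2 CPM in Chd4 cKO libraries against 55.4, 66.5 and 58.9 CPM in controls (edgeR adjusted p = 0.000159). Aire was higher, with 3737, 4088 and 3997 CPM in libraries labelled Aire KO against 1942, 1810 and 2302 CPM in WT (edgeR adjusted p = 9.77e-05). No label says which exons the Aire allele lacks, so this count is no check of the genotype, and the samples are called the libraries labelled Aire KO throughout. The summed level of 10 mTEC marker genes was 22960 to 26670 CPM in libraries labelled Aire KO and 19900 to 24080 CPM in their WT. It was 17520 to 23070 CPM in Fezf2 KO libraries and 15690 to 20710 CPM in their WT, and 17600 to 18690 CPM in Chd4 cKO libraries and 14570 to 18060 CPM in controls. This list holds Aire and Fezf2 themselves, and its members did not move as one. By edgeR 4 of the 10 rose and 2 fell in libraries labelled Aire KO, 1 rose and 1 fell in Fezf2 KO libraries, and 3 rose and 3 fell in Chd4 cKO libraries. Library B of the WT for Fezf2 differed from the other WT libraries of its group in some genes, which was not tested. It had 128 CPM of Chd4 against 41.7 and 43.6 CPM in those libraries. Of the 37 muscle genes tested there, 20 were highest in B, 8 in A and 9 in C. The share over all genes tested was not counted, so this is no result about the muscle genes.

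Per exon length, the muscle genes ranged from abundant to undetected. In TPM, which scales exon counts by exon length and library total, Actn3, the fast-fibre alpha-actinin of the Z-disc, was the most abundant in the control groups, at 398 ± 36.3 TPM in the WT for Aire, 267 ± 83.6 TPM in the WT for Fezf2 and 418 ± 20.1 TPM in Chd4 controls (SD, n = 3 each). Tpm2, the beta-tropomyosin that lies along the actin filament, followed at 203 ± 24.4 TPM in the WT for Aire (SD, n = 3). Mylpf, the regulatory light chain of fast skeletal myosin, and Myog, the transcription factor myogenin, were next there at 77.2 ± 14.1 and 65.8 ± 17.1 TPM (SD, n = 3 each), a difference smaller than their spread. Myogenin was the leading transcription factor of the group. The other myogenic factors Myod1, Myf5 and Myf6 were at or near 0, with 9, 0 and 13 reads over the 3 WT libraries for Aire against 548 for Myog. Among the troponins, Tnni1 (slow inhibitory subunit) and Tnnt2 (cardiac troponin T) led in the WT for Aire, at 28.3 ± 4.77 and 27.7 ± 3.07 TPM (SD, n = 3 each), which do not differ beyond their spread. Pln, an inhibitor of the calcium pump, and Atp2a1, the fast-muscle pump itself, had 18.2 ± 2.54 and 14.2 ± 0.894 TPM in the WT for Aire. Myh4, the type IIb heavy chain, Mybpc1, slow myosin-binding protein C, and Ckm, muscle creatine kinase, had 10.02 ± 1.33, 8.53 ± 1.27 and 5.74 ± 0.711 TPM there. In Chd4 cKO libraries Pdlim3, Tpm2 and Actn3 had 446 ± 36.8, 399 ± 97.1 and 379 ± 40.3 TPM (SD, n = 3 each). In Chd4 controls they had 97.7 ± 13.0, 285 ± 32.1 and 418 ± 20.1 TPM. Atp2a1 had 95.2 ± 6.74 TPM in Chd4 cKO libraries and 10.7 ± 1.77 TPM in Chd4 controls (SD, n = 3 each). The exon length of 32 of the 48 genes differs between the 2 annotations, so a TPM level is compared here within a table only.

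**Figure D1:**
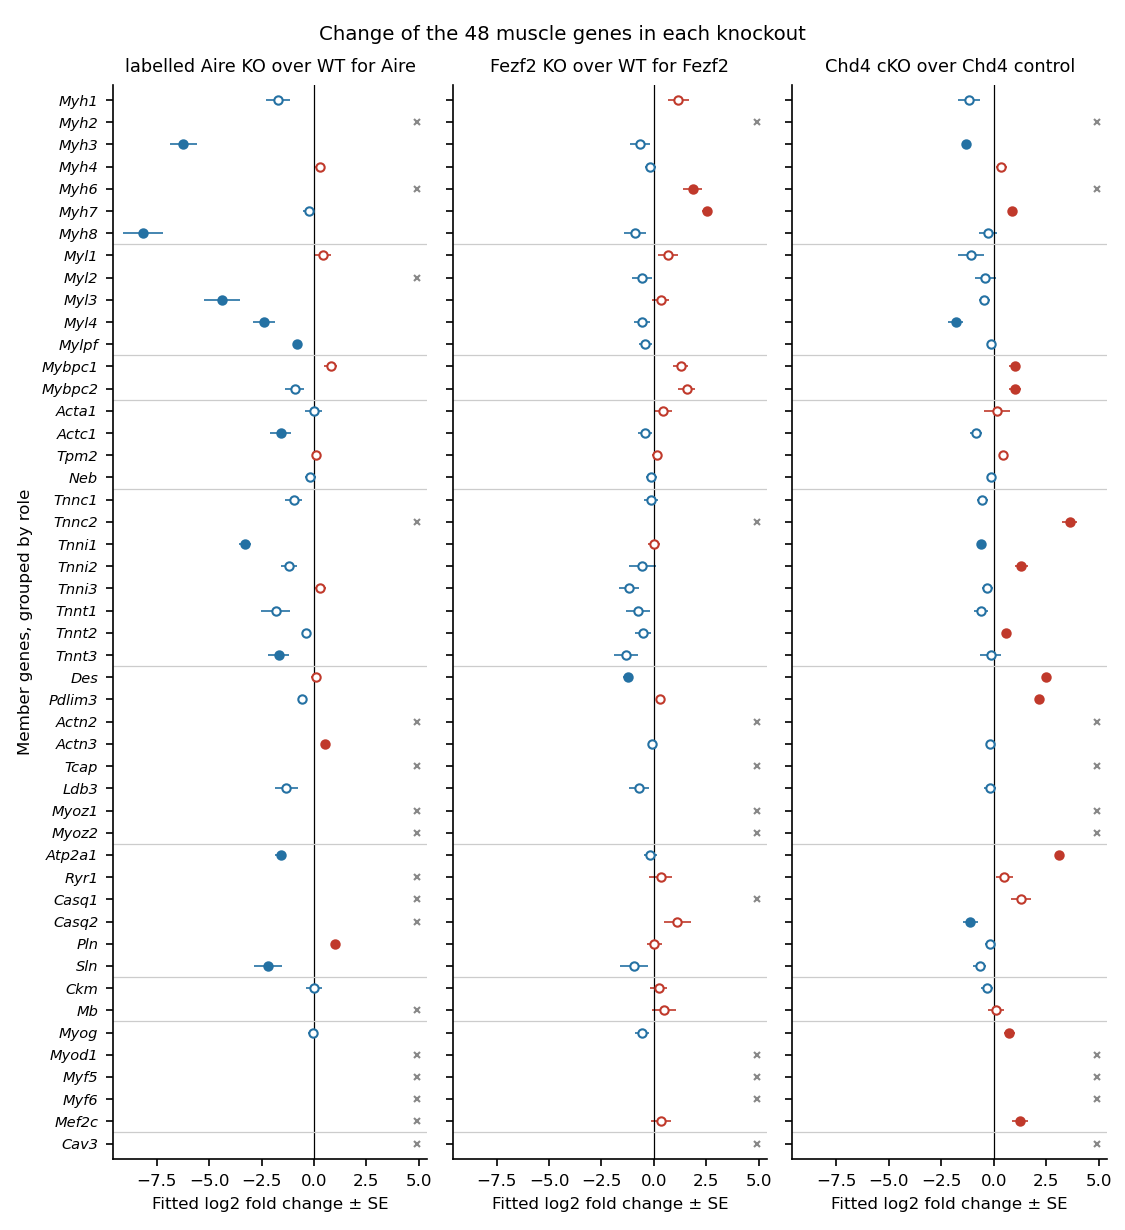
Fitted log2 fold change ± SE of each of the 48 muscle genes in each knockout over its own control (3 libraries each), with genes down the page grouped by role. Filled symbols passed edgeR at an adjusted p of 0.05, open symbols did not, red is positive, blue is negative, and crosses at the right edge mark genes too low to test. Filled symbols lie mostly below 0 for the libraries labelled Aire KO (10 lower, 2 higher) and mostly above 0 for Chd4 cKO (11 higher, 4 lower), and 3 genes are filled for Fezf2 KO. The fitted value of Myh8 in the libraries labelled Aire KO rests on 0 reads.

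In libraries labelled Aire KO, the genes of developing muscle Myh3, Myh8 and Myl4 fell, and several genes had no read at all. Of the 31 muscle genes with enough reads to test, 10 fell and 2 rose by edgeR's quasi-likelihood test at an adjusted p of 0.05, where 9.37% of all 14949 genes tested fell and 5.73% rose. The median log2 fold change was -0.80 over the 31 genes, also with Myh8 set to its bound, and -0.00 over all genes tested. A gene can pass the filter on low counts through its WT libraries alone, as Myh8, Myh3, Myl4, Myl3, Tnnt3 and Sln did among those that fell. Such a gene was bound to be lower in libraries labelled Aire KO, though not to be called. Myh1 and Tnnt1 passed the same way and were not called. The counts and the median therefore describe the tested genes and not all 48. In bulk RNA, fewer cells of a type and less RNA per cell cannot be told apart.

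Among myosin heavy chains, the motor proteins, 2 developmental forms fell and the adult forms tested did not pass. Of these, the fast chain Myh1 was nonetheless lower in each library labelled Aire KO, with 0.714, 1.93 and 1.89 CPM against 7.06, 5.38 and 2.59 CPM in WT. Its log2 fold change was -1.71 ± 0.57 (edgeR adjusted p = 0.0643), and it was called lower with no filter and without WT library C. Myh3, the embryonic heavy chain, had 0, 0.643 and 0 CPM in libraries labelled Aire KO against 25.0, 12.1 and 20.3 CPM in WT. These are 3 reads against 272, an 84.5-fold lower level (95% counting interval 28.6 to 413, which covers counting error only; edgeR adjusted p = 3.72e-05). Myh8, the perinatal heavy chain, had no read in libraries labelled Aire KO against 8.48, 8.97 and 6.04 CPM in WT, 110 reads in all, and was at least 34.2-fold lower when the empty group is set to a floor of 3 reads (edgeR adjusted p = 0.000193). Both developmental heavy chains were thus near or at 0 in every library labelled Aire KO and present in every WT library. Myh6, the alpha heavy chain of the heart, had 0 reads in libraries labelled Aire KO against 36 in WT, at least 11.2-fold lower with the same floor. Myh2, the type IIa chain, had 0 against 17, at least 5.28-fold lower. Neither was tested, and Myh2 also had no read in 1 WT library. Myh4 lies between the developmental genes in the heavy chain cluster, at chr11:67238029-67260446 on the plus strand of GRCm38. The tables place Myh3 at chr11:67078300-67102291 and Myh8 at chr11:67277124-67308634. It had 23.8, 24.0 and 40.7 CPM in libraries labelled Aire KO and 27.0, 21.3 and 23.7 CPM in WT, and the groups overlapped (log2 fold change 0.29 ± 0.23, edgeR adjusted p = 0.475). Myh7, the beta heavy chain of slow fibres and ventricle, overlapped as well, with 11, 9.43 and 18.4 CPM in libraries labelled Aire KO and 17.4, 13.0 and 15.8 CPM in WT (log2 fold change -0.25 ± 0.29, edgeR adjusted p = 0.644).

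Among the light chains, which bind the neck of the myosin head, 3 of 4 tested fell, where 9.37% of all genes tested fell. Of these, Myl4 and Myl3 passed the filter on low counts through their WT libraries alone, so the count is no result about the light chains. Myl4, the essential light chain of atrium and embryonic muscle, had 0.952, 2.14 and 0.946 CPM in libraries labelled Aire KO against 7.47, 4.94 and 9.28 CPM in WT (log2 fold change -2.39 ± 0.52, edgeR adjusted p = 0.00676). Myl3, the essential light chain of slow muscle and ventricle, had 2 reads in libraries labelled Aire KO against 53 in WT, a 24.7-fold lower level (95% counting interval 6.51 to 209; edgeR adjusted p = 0.00323). For both genes every library labelled Aire KO lay below every WT library. Mylpf had 22.4, 19.7 and 14.4 CPM in libraries labelled Aire KO against 31.9, 39.7 and 26.8 CPM in WT (log2 fold change -0.80 ± 0.22, edgeR adjusted p = 0.0279). This smaller separation did not pass in 5 of the 10 alternative fits (adjusted p 0.00593 to 0.143), 4 of them without 1 library, which was WT library A or B, or library B or C labelled Aire KO. Myl1, the essential light chain of fast fibres, overlapped between the groups (log2 fold change 0.42 ± 0.39, edgeR adjusted p = 0.553). Myl2, the slow and ventricular regulatory light chain, had 0 reads in libraries labelled Aire KO against 21 in WT, at least 6.53-fold lower and not tested.

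Troponins, which make thin filaments sensitive to calcium, fell for 2 of the 7 tested, where 9.37% of all genes tested fell. Tnnt3, 1 of the 2, passed the filter on low counts through its WT libraries alone. Tnni1, the inhibitory subunit of slow skeletal muscle, had 5.71, 3.0 and 3.78 CPM in libraries labelled Aire KO against 36.9, 37.0 and 48.1 CPM in WT. The highest library labelled Aire KO lay far below the lowest WT library, and the change (log2 fold change -3.29 ± 0.27, edgeR adjusted p = 5.69e-06) had the smallest adjusted p of the 31 genes. Tnnt3, the fast tropomyosin-binding subunit, had 1.90, 1.5 and 1.89 CPM in libraries labelled Aire KO against 6.46, 3.37 and 7.34 CPM in WT (log2 fold change -1.69 ± 0.50, edgeR adjusted p = 0.0371). It did not pass in 6 of the 10 alternative fits (adjusted p 0.0314 to 0.143), among them those without WT library A or C or without any one library labelled Aire KO. Tnnc2, the fast calcium-binding subunit, had 0 reads in libraries labelled Aire KO against 22 in WT, at least 6.84-fold lower and not tested. Tnni2, Tnnt1 and Tnnt2 did not pass, but each library labelled Aire KO lay below every WT library. Their log2 fold changes were -1.19 ± 0.40, -1.84 ± 0.67 and -0.40 ± 0.16 (edgeR adjusted p = 0.0641, 0.0887 and 0.129). Tnnc1 overlapped (log2 fold change -0.98 ± 0.43, edgeR adjusted p = 0.154). Tnni3, the cardiac inhibitory subunit, overlapped as well and was the 1 of the 7 with a positive value (log2 fold change 0.29 ± 0.30, edgeR adjusted p = 0.602).

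Calcium-handling genes went both ways. Atp2a1 had 5.48, 8.15 and 5.91 CPM in libraries labelled Aire KO against 18.2, 20.9 and 20.3 CPM in WT, with no overlap (log2 fold change -1.59 ± 0.27, edgeR adjusted p = 0.00131). Exons of Rabep2 on the opposite strand overlap 21.9% of its exon length, so part of its count is uncertain. Its small inhibitor Sln, sarcolipin, had 9 reads in libraries labelled Aire KO against 46 in WT (log2 fold change -2.19 ± 0.66, edgeR adjusted p = 0.0396). Of the 10 alternative fits 8 did not call it (adjusted p 0.0389 to 0.17), among them those without any one WT library and without library A or B labelled Aire KO. Pln, phospholamban, the inhibitor of the pump best known from heart, rose, with 34.3, 36.9 and 35.7 CPM in libraries labelled Aire KO against 20.0, 19.1 and 15.1 CPM in WT (log2 fold change 0.98 ± 0.19, edgeR adjusted p = 0.00295). Another annotated gene's exon overlaps 59.6% of the exon length of Pln, so its value is uncertain.

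The remaining parts of the sarcomere showed few changes in libraries labelled Aire KO. Actn3 rose, with 692, 720.0 and 598 CPM in libraries labelled Aire KO against 504, 441 and 435 CPM in WT and no overlap (log2 fold change 0.54 ± 0.11, edgeR adjusted p = 0.00499). Actc1, cardiac alpha-actin, had 1.43, 4.72 and 9.93 CPM in libraries labelled Aire KO against 10.5, 21.8 and 16.2 CPM in WT (log2 fold change -1.59 ± 0.49, edgeR adjusted p = 0.0461). The groups did not overlap, but the call was lost in 4 of the 10 alternative fits (adjusted p 0.000123 to 0.184), those without WT library B or C or without library A or B labelled Aire KO. Des, desmin, the intermediate filament that ties Z-discs together, had 42.1, 29.2 and 51.1 CPM in libraries labelled Aire KO and 27.7, 51.8 and 36.7 CPM in WT, which overlapped. Tpm2, Acta1 (skeletal alpha-actin) and Neb (nebulin, the ruler of the thin filament) had log2 fold changes of 0.10 ± 0.13, -0.02 ± 0.40 and -0.18 ± 0.26, and none passed (edgeR adjusted p = 0.676, 0.983 and 0.716). Pdlim3, a Z-disc adaptor that binds alpha-actinin, had 37.4, 26.4 and 34.5 CPM in libraries labelled Aire KO against 42.2, 57.7 and 46.6 CPM in WT and fell just short of the threshold (edgeR adjusted p = 0.0511). Myog had 36.7, 28.7 and 49.4 CPM in libraries labelled Aire KO and 29.3, 39 and 49.4 CPM in WT, and the groups overlapped. By isoform class, all 3 developmental genes tested fell. Each of the 3 passed the filter through its WT libraries alone, so this count is no result about the class. Of 9 fast genes 3 fell and 1 rose, of 10 slow or cardiac genes 3 fell and 1 rose, and of 9 genes shared by fibre types 1 fell. Among those that fell, Tnnt3 (fast), Myl3 (slow or cardiac) and Sln (shared) likewise passed the filter through their WT libraries alone. These counts are therefore no result about the classes either. Over all genes tested 9.37% fell and 5.73% rose.

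**Figure D2:**
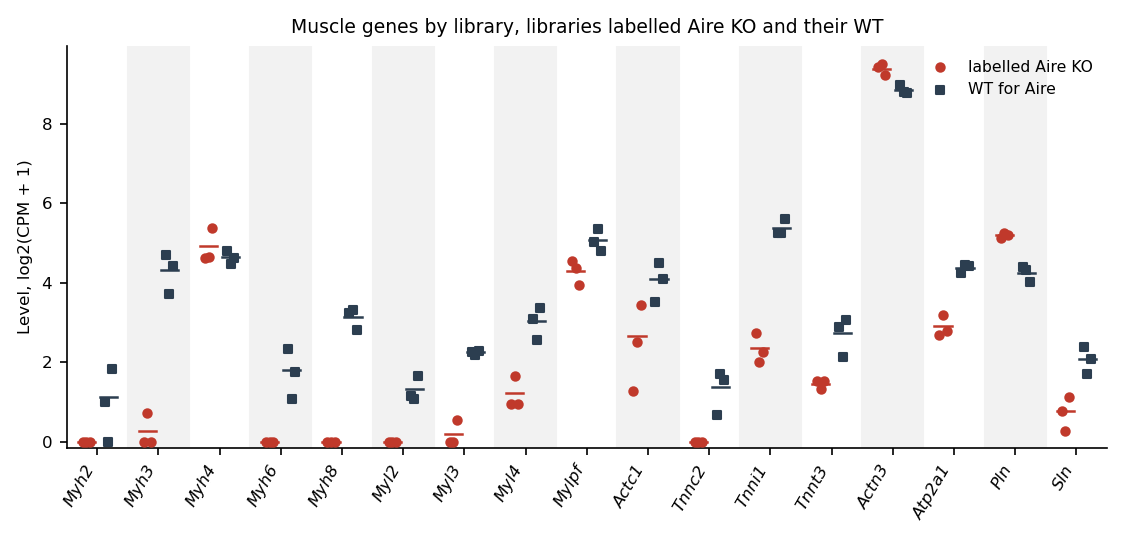
Level in log2(CPM + 1) of each muscle gene called in the libraries labelled Aire KO, of those with 0 reads there and at least 10 in WT, and of Myh4, with circles for the 3 libraries labelled Aire KO, squares for the 3 WT libraries and dashes at the log2 of the group mean plus 1. Myh8, Myh6, Myl2, Tnnc2 and Myh2 sit on 0 in all 3 libraries labelled Aire KO, while Actn3 and Pln lie above WT and Myh4 overlaps.

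The promoter windows of Tnni1, Myh3 and Myh8 are shown as those of the 3 genes with the smallest adjusted p in libraries labelled Aire KO. Each line gives the 250 bases before the gene's RefSeq start, 5′ to 3′ on the gene's strand (GRCm38.p6), with matches to CAGCTG, to CAGGTG or CACCTG, and to the MEF2 and CArG consensus motifs in capitals. CAGCTG and CAGGTG are forms of the E-box bound by myogenic factors, MEF2 motifs bind factors such as MEF2C, and CArG boxes bind serum response factor. 
Myh3 chr11:67078050-67078299 (plus strand): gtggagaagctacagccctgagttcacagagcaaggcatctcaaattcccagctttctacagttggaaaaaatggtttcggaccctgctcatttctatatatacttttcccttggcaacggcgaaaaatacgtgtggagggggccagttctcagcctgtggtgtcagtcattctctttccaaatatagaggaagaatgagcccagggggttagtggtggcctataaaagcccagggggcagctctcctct
Myh8 chr11:67276874-67277123 (plus strand): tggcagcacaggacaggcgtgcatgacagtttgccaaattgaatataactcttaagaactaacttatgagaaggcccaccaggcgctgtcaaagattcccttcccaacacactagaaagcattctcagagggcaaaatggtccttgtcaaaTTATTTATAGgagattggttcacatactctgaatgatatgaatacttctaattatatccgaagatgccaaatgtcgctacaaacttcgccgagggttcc
Tnni1 chr1:135799171-135799420 (plus strand): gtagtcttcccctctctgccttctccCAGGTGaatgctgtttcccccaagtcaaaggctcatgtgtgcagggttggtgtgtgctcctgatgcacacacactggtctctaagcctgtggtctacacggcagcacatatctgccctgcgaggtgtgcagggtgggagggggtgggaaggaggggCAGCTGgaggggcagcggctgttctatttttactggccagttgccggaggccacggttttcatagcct
Myh3 holds no capitalised motif and a TATAAA ending 23 bases before its start. Myh8 holds a MEF2 match that ends 89 bases before its start and overlaps a TATAAA match on the other strand. The Tnni1 window printed holds both kinds of E-box, the CAGCTG ending 62 bases before its start. RefSeq gives Tnni1 another start, whose window at chr1:135799261-135799510 holds the CAGCTG ending 152 bases before it and neither CAGGTG nor CACCTG. A match describes these letters and is not a binding site.

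Muscle genes outside the 48 also changed in both directions in libraries labelled Aire KO. Of 46 further muscle genes, 29 were tested, 11 fell and 4 rose, with a median log2 fold change of -1.03. Among all genes tested 9.37% fell and 5.73% rose, which stands beside this list and those below. Genes of these lists could also pass the filter on low counts through their WT libraries alone, as Nppa did, so the counts describe the tested genes only. Eno3, the muscle enolase, had 73.1 ± 2.36 CPM in libraries labelled Aire KO and 149 ± 15 CPM in WT (SD, n = 3 each). Pygm, muscle glycogen phosphorylase, had 2.0 ± 0.54 CPM in libraries labelled Aire KO and 11.5 ± 3.35 CPM in WT (SD, n = 3 each). Both fell (edgeR adjusted p = 7.13e-05 and 0.00107). Jph1, junctophilin of the triad, and Srl, the calcium-binding sarcalumenin, rose to 193 ± 6.61 and 229 ± 8.07 CPM in libraries labelled Aire KO, against 89.6 ± 13.7 and 101 ± 22.6 CPM in WT (SD, n = 3 each; edgeR adjusted p = 7.02e-05 and 0.000148). Of 10 cardiac genes, 6 were tested, 3 fell and 1 rose. Nppa, atrial natriuretic peptide, had 1 read in libraries labelled Aire KO against 290 in WT, and Hand1 and Gata4, cardiac transcription factors, fell by 4.21 and 1.43 on the log2 scale (edgeR adjusted p = 0.000911 and 0.00652). Of 12 genes that act upstream in myogenesis, 6 were tested and 1 rose, Msc (musculin, a repressor related to the myogenic factors), by 0.71 on the log2 scale. Of 10 genes of the neuromuscular junction, 7 were tested and edgeR called 0, with 1 at an unadjusted p under 0.05 and 0 by DESeq2.

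Markers of other cells were measured in the same libraries. Of 14 genes of smooth muscle and stroma, 13 were tested, 5 fell and 3 rose in libraries labelled Aire KO. Their summed level was 655 to 804 CPM in libraries labelled Aire KO against 514 to 583 CPM in WT, and the stromal proteoglycan Dcn made up 341, 373 and 289 CPM of it in libraries labelled Aire KO and 149, 120.3 and 103 CPM in WT. Cnn1, smooth muscle calponin, had 0 reads in libraries labelled Aire KO against 147 in WT. The collagens Col1a1 and Col3a1 had 2.18 ± 0.965 and 20.6 ± 4.17 CPM in libraries labelled Aire KO, against 16.8 ± 3.90 and 42.8 ± 1.86 CPM in WT (SD, n = 3 each; edgeR adjusted p = 0.000253 and 0.00181). Acta2 (smooth muscle alpha-actin) and Pdgfrb (a receptor of mural cells), named after their values were seen, also fell, to 29.6 ± 9.21 and 21.2 ± 5.50 CPM in libraries labelled Aire KO against 59.3 ± 19.3 and 35.5 ± 6.55 CPM in WT (SD, n = 3 each). By DESeq2 the 3 that rose were Dcn, Lum and Myh11, the smooth muscle myosin heavy chain, so smooth muscle and stromal genes each went both ways. Of 15 thymocyte genes, 14 were tested and edgeR called 0, as did DESeq2, with 0 at an unadjusted p under 0.05 and with summed levels of 80.5 to 137 CPM in libraries labelled Aire KO and 71.9 to 157 CPM in WT. Of 16 relatives of the sarcomere genes used outside striated muscle, all 16 were tested, 3 fell and 1 rose. The smallest adjusted p was that of Myh14 (log2 fold change -0.98 ± 0.26, edgeR adjusted p = 0.0206). Beside each of these list counts, 9.37% of all genes tested fell and 5.73% rose. The part of other cells in the muscle gene changes was not tested.

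In Fezf2 KO libraries the changes centred on a few genes, led by the cardiac and slow heavy chains. Of the 37 muscle genes tested, 2 rose and 1 fell, where 2.48% of all 15695 genes tested rose and 2.4% fell. The median log2 fold change was -0.13 over the 37 genes and -0.03 over all genes tested. Myh7 had 83.2, 73.2 and 59.4 CPM in Fezf2 KO libraries against 10.1, 13.4 and 13.5 CPM in WT. The lowest Fezf2 KO library lay far above the highest WT library (log2 fold change 2.55 ± 0.24, edgeR adjusted p = 0.000557), and the call was made in every alternative fit. Its neighbour on chromosome 14 is Myh6, with Myh6 at chr14:54941981-54966927 and Myh7 at chr14:54970688-54994634, both on the minus strand of GRCm38. Myh6 had 18.7, 11.5 and 12.4 CPM in Fezf2 KO libraries against 2.52, 6.55 and 2.89 CPM in WT (log2 fold change 1.85 ± 0.44, edgeR adjusted p = 0.0422). Des had 11.9, 16.5 and 11 CPM in Fezf2 KO libraries against 28.5, 32.0 and 32.5 CPM in WT (log2 fold change -1.24 ± 0.25, edgeR adjusted p = 0.0226). Neither pair of groups overlapped, but both calls were lost without any one of 5 of the 6 libraries, all but WT library B. Over the 10 alternative fits the adjusted p ran from 0.0018 to 0.205 for Myh6 and from 0.000901 to 0.126 for Des. The 2 heavy chains are similar in sequence, and how reads that fit both were counted is not stated, so the split between them is uncertain.

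The myosin-binding protein C genes, which brace the thick filament, were higher in each Fezf2 KO library without passing the threshold. Mybpc2, the fast form, had 13.1, 9.67 and 10.3 CPM in Fezf2 KO libraries against 3.77, 2.36 and 5.06 CPM in WT (log2 fold change 1.56 ± 0.40, edgeR adjusted p = 0.0554). Mybpc1 had 14, 22.6 and 13.3 CPM in Fezf2 KO libraries against 8.39, 4.72 and 7.22 CPM in WT (log2 fold change 1.29 ± 0.36, edgeR adjusted p = 0.0724). Both were called higher by DESeq2, and without WT library B both passed (log2 fold change 1.33 for Mybpc2 and 1.09 for Mybpc1, edgeR adjusted p = 0.0351 and 0.0465). The developmental genes that were near 0 in libraries labelled Aire KO were present here. Myh3 had 19.7, 6.17 and 11.5 CPM in Fezf2 KO libraries and 30.4, 10.2 and 19.3 CPM in WT. Myh8 had 5.24, 2.06 and 12.2 CPM in Fezf2 KO libraries and 11.5, 13.9 and 11.1 CPM in WT. Each pair overlapped and neither passed (edgeR adjusted p = 0.474 and 0.382). Tnni1 had 45.8, 45.7 and 35.6 CPM in Fezf2 KO libraries and 31.7, 61.8 and 33.7 CPM in WT, a log2 fold change of 0.00 ± 0.28 (edgeR adjusted p = 0.997). Atp2a1, Actn3 and Tpm2 overlapped as well, with log2 fold changes of -0.16 ± 0.32, -0.09 ± 0.21 and 0.14 ± 0.22.

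All 7 troponins tested were highest, among the WT libraries, in WT library B, and how many of all genes were highest there was not counted. Tnnt2 had 31.9, 85.4 and 33.9 CPM in WT libraries A, B and C. Tnni3 had 5.42, 5.55 and 3.90 CPM in Fezf2 KO libraries, below each WT library at 7.34, 19.6 and 6.98 CPM, but its log2 fold change of -1.18 ± 0.47 did not pass (edgeR adjusted p = 0.209). Without WT library B, 1053 genes rose and 981 fell over the whole table, against 389 and 376 with it. Of the muscle genes Mybpc1, Mybpc2, Myh6, Myh7 and Myl1 rose and Des fell without it. The value of Myh7 was then 2.62 (edgeR adjusted p = 1.20e-05), that of Des -1.21 (0.00468), and that of Tnni3 -0.52, on the log2 scale.

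**Figure D3:**
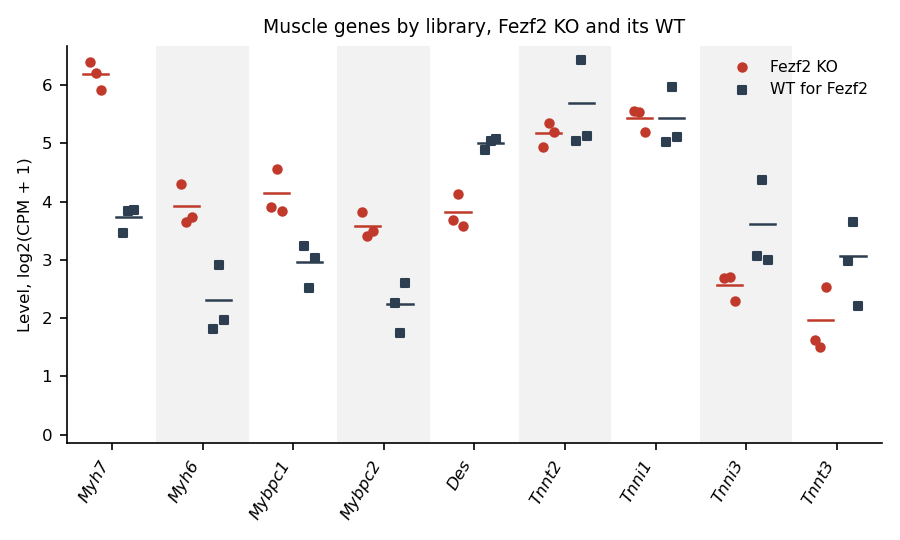
Level in log2(CPM + 1) of the 3 muscle genes called in Fezf2 KO, of Mybpc1 and Mybpc2, and of 4 troponins, with circles for the 3 Fezf2 KO libraries, squares for the 3 WT libraries and dashes at the log2 of the group mean plus 1. Myh7 and Myh6 lie above WT and Des below it, and for each of the 4 troponins 1 WT library, B, lies above the other WT libraries.

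Among other gene lists in Fezf2 KO libraries, thymocyte genes had the most calls. Of the 46 further muscle genes, 35 were tested, 3 rose and 1 fell. Among all genes tested 2.48% rose and 2.4% fell, which stands beside this list and those below. Trim63 and Fbxo32, muscle ubiquitin ligases, rose by 1.66 ± 0.27 and 1.07 ± 0.26 on the log2 scale (edgeR adjusted p = 0.00821 and 0.0412). The Z-disc protein Myot rose by 1.25 ± 0.29 (edgeR adjusted p = 0.039). Of 7 cardiac genes tested 2 fell, Kcnj3 and Nppa, by 2.11 and 1.54 on the log2 scale (edgeR adjusted p = 0.0362 and 0.0475). All 15 thymocyte genes were tested and 8 fell, with summed levels of 217 to 272 CPM in Fezf2 KO libraries and 438 to 801 CPM in WT. In the WT for Aire, scaled within its own comparison, the sum was 71.9 to 157 CPM. The 7 upstream myogenic genes and the 9 genes of the neuromuscular junction tested had 0 calls by edgeR, with 2 and 1 at an unadjusted p under 0.05. DESeq2 called 1 upstream gene (Eya1, higher) and 0 of the junction. The 16 relatives used outside striated muscle had 0 calls by edgeR, with 2 at an unadjusted p under 0.05, and DESeq2 called 1 (Myh10, lower). Of 13 smooth muscle and stromal genes tested, 1 rose, the proteoglycan Lum, with 16.9 ± 2.73 CPM in Fezf2 KO libraries and 4.32 ± 0.636 CPM in WT (SD, n = 3 each). The part of thymocyte RNA in the muscle gene values was not tested.

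In Chd4 cKO libraries, 4 genes of fast fibres and the Z-disc rose more than 4-fold, while 2 embryonic genes fell. Of the 38 muscle genes tested 11 rose and 4 fell, where 14.3% of all 15182 genes tested rose and 14.3% fell. Among the called genes, Tnnc2 (9, 14 and 4 reads in controls) and Mef2c (7, 6 and 10) passed the filter on low counts through the Chd4 cKO libraries. Casq2 passed it through the controls. Passing in this way favours a difference in that direction without fixing the call, so these counts describe the tested genes and not all 48. The median log2 fold change was -0.15 over the 38 genes, 17 of them positive and 21 negative, and 0.00 over all genes tested. Atp2a1 had 170.2, 159 and 150.3 CPM in Chd4 cKO libraries against 20.8, 19.5 and 15.1 CPM in controls (log2 fold change 3.12 ± 0.13, edgeR adjusted p = 9.66e-07). Rabep2, which overlaps it, had 48.3, 46.6 and 40.7 CPM in Chd4 cKO libraries and 48.4, 45.8 and 51.0 CPM in controls (edgeR adjusted p = 0.595). Des had 216, 246 and 212 CPM in Chd4 cKO libraries against 39.4, 44.0 and 37.1 CPM in controls (log2 fold change 2.48 ± 0.11, edgeR adjusted p = 9.88e-07). Pdlim3 had 328, 321 and 371 CPM in Chd4 cKO libraries against 65.6, 84.6 and 78.5 CPM in controls (log2 fold change 2.15 ± 0.11, edgeR adjusted p = 2.26e-06). For each of the 3 genes every Chd4 cKO library lay more than 3-fold above every control library. Tnnc2 had 21.6, 37.4 and 25.5 CPM in Chd4 cKO libraries against 2.53, 3.46 and 0.957 CPM in controls (log2 fold change 3.62 ± 0.37, edgeR adjusted p = 8.21e-05). Exons of Tnnc2 overlap those of Ube2c on the opposite strand over 74% of their length, and no source used here says whether strand entered the counting, so its value is uncertain. Ube2c itself had 56.2, 50.5 and 60.2 CPM in Chd4 cKO libraries and 50.9, 47.7 and 46.9 CPM in controls (edgeR adjusted p = 0.238).

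The promoter windows of Des, Atp2a1 and Pdlim3 are shown as those of the genes with the smallest adjusted p in Chd4 cKO libraries, written as for the windows above. 
Des chr1:75360042-75360291 (plus strand): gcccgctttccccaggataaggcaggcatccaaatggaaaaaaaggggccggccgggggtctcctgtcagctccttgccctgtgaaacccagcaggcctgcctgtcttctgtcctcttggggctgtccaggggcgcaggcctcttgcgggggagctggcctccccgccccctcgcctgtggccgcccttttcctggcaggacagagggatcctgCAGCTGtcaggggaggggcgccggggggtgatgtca
Atp2a1 chr7:126463074-126463323 (minus strand): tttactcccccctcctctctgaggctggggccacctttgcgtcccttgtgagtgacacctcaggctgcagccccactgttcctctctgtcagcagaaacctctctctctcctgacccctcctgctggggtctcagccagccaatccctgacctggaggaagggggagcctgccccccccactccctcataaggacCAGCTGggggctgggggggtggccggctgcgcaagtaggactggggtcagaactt
Pdlim3 chr8:45885237-45885486 (plus strand): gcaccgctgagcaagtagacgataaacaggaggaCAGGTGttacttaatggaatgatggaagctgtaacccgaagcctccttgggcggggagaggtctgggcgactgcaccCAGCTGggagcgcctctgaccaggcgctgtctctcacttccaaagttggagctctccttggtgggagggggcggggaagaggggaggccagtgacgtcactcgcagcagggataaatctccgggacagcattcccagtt
Each holds 1 CAGCTG, which ends 30 bases before the start of Des, 49 bases before that of Atp2a1 and 133 bases before that of Pdlim3, and Pdlim3 also holds a CAGGTG. Over both strands, CAGCTG occurs in 13% of all 32851 RefSeq windows of this length and in 39.6% of the 48 windows of the 39 muscle genes with an entry, 17 of the 39 genes. CAGGTG or CACCTG occurs in 17.2% of all windows and 18.8% of the muscle windows, and CANNTG, which contains both, in 66.2% and 81.2%. The MEF2 consensus occurs in 2.92% and 10.4%, the CArG consensus in 1.47% and 12.5%, and TATAAA, which can lie inside a MEF2 match, in 12.4% and 22.9%. Genes that changed were not compared with the other muscle genes in these motifs.

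Among the other troponins in Chd4 cKO libraries, Tnni2, the fast inhibitory subunit, rose, with 8.77, 9.61 and 8.35 CPM in Chd4 cKO libraries against 3.66, 4.70 and 2.39 CPM in controls (log2 fold change 1.32 ± 0.32, edgeR adjusted p = 0.0106). Tnnt2 rose by 0.57 ± 0.15 on the log2 scale, with 52.5, 47.1 and 40.9 CPM in Chd4 cKO libraries against 30.7, 37.4 and 27.0 CPM in controls (edgeR adjusted p = 0.0189). The call on Tnnt2 was lost in 5 of the 10 alternative fits (adjusted p 0.00836 to 0.149), among them those without control library A or C or Chd4 cKO library A or B. Tnni1, the slow form, fell, with 28.5, 32.5 and 25.5 CPM in Chd4 cKO libraries against 49.0, 44.0 and 39.5 CPM in controls (log2 fold change -0.60 ± 0.14, edgeR adjusted p = 0.0102). The inhibitory subunits of fast and slow fibres thus changed in opposite directions, without overlap between the groups for either. Both calls were lost with a spread estimated over all libraries (adjusted p 0.108 for Tnni1 and 0.078 for Tnni2). Tnnc1, Tnni3, Tnnt1 and Tnnt3 did not pass, with log2 fold changes between -0.61 and -0.15.

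Of the thick filament genes, both forms of myosin-binding protein C rose in Chd4 cKO libraries. Mybpc1 had 28.3, 45.9 and 56.5 CPM in Chd4 cKO libraries against 27.3, 22.0 and 15.8 CPM in controls (log2 fold change 1.01 ± 0.26, edgeR adjusted p = 0.0154), the lowest Chd4 cKO library lying just above the highest control. Without Chd4 cKO library C its adjusted p was 0.0502. Mybpc2 had 13.9, 12.6 and 12 CPM in Chd4 cKO libraries against 9.28, 4.21 and 5.74 CPM in controls (log2 fold change 1.02 ± 0.29, edgeR adjusted p = 0.0238). Its call was lost in 5 of the 10 alternative fits (adjusted p 0.0083 to 0.0736), 4 of them without control library B or C or Chd4 cKO library A or B. Among heavy chains Myh7 rose and Myh3 fell. Myh7 had 30.2, 31.3 and 29.98 CPM in Chd4 cKO libraries against 16.0, 19.8 and 14.4 CPM in controls (log2 fold change 0.87 ± 0.16, edgeR adjusted p = 0.00295). Myh3 had 16.5, 15.9 and 10.3 CPM in Chd4 cKO libraries against 43.6, 30.2 and 34.7 CPM in controls (log2 fold change -1.31 ± 0.21, edgeR adjusted p = 0.00118). Myl4 fell too, with 5.75, 6.62 and 2.57 CPM in Chd4 cKO libraries against 13.5, 28.0 and 14.1 CPM in controls (log2 fold change -1.81 ± 0.37, edgeR adjusted p = 0.00455). Myh3 and Myl4, a heavy and a light chain of embryonic muscle, were thus lower in each Chd4 cKO library than in any control. Myh8 overlapped, with 7.48, 14.2 and 6.64 CPM in Chd4 cKO libraries and 16.0, 4.95 and 15.1 CPM in controls. Myh4, the adult fast chain, overlapped as well (log2 fold change 0.37 ± 0.25, edgeR adjusted p = 0.31).

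The transcription factors tested, Myog and Mef2c (a MADS-box partner of the myogenic factors), both rose in Chd4 cKO libraries. Mef2c had 4.89, 4.69 and 4.50 CPM in Chd4 cKO libraries against 1.97, 1.48 and 2.39 CPM in controls (log2 fold change 1.26 ± 0.37, edgeR adjusted p = 0.0284), with no overlap. DESeq2 did not call it, nor did the fits without any one library other than control library C (adjusted p 0.0284 to 0.0879 over the 10 alternatives). Myog had 62.2, 41.4 and 57.4 CPM in Chd4 cKO libraries against 46.7, 26.7 and 22.5 CPM in controls (log2 fold change 0.75 ± 0.25, edgeR adjusted p = 0.0445), but control library A lay above Chd4 cKO library B. Its call was lost in 5 of the 10 alternative fits (adjusted p 0.00516 to 0.137), among them those without control library B or C or Chd4 cKO library A or C. Among calcium genes Casq2, the cardiac calcium-binding calsequestrin, fell on 55 reads in Chd4 cKO libraries against 51 in controls at unequal depth (log2 fold change -1.11 ± 0.37, edgeR adjusted p = 0.0442). This call was not made in 9 of the 10 alternative fits (adjusted p 0.0441 to 0.307), those without any one library among them. Actn3 had 462, 540.2 and 580 CPM in Chd4 cKO libraries and 571, 620.4 and 594 CPM in controls and overlapped (edgeR adjusted p = 0.201). Acta1 varied widely among the Chd4 cKO libraries themselves, with 36.8, 5.51 and 12.6 CPM, against 19.7, 23.0 and 6.22 CPM in controls. By isoform class, 4 of 11 fast genes rose, 4 of 12 genes shared by fibre types rose, 3 of 12 slow or cardiac genes rose and 2 fell, and 2 of 3 developmental genes fell. These counts include Tnnc2 (fast), Mef2c (shared) and Casq2 (slow or cardiac), which passed the filter on low counts through 1 group. Over all genes tested 14.3% rose and 14.3% fell.

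**Figure D4:**
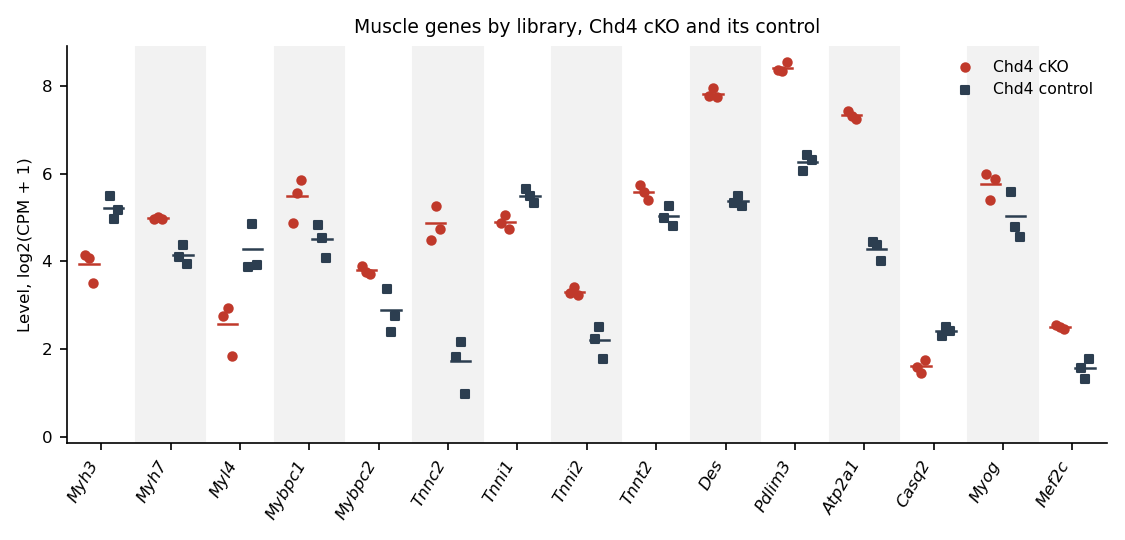
Level in log2(CPM + 1) of each muscle gene called in Chd4 cKO, with circles for the 3 Chd4 cKO libraries, squares for the 3 Chd4 control libraries and dashes at the log2 of the group mean plus 1. Tnnc2, Des, Pdlim3 and Atp2a1 stand far above the controls, Myh3, Myl4, Casq2 and Tnni1 lie below them, and Myog overlaps.

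Related gene lists in Chd4 cKO libraries moved in both directions. Of the 46 further muscle genes, 35 were tested, 7 rose and 8 fell. Among all genes tested 14.3% rose and 14.3% fell, which stands beside this list and those below. Pygm had 76.0 ± 9.52 CPM in Chd4 cKO libraries and 12 ± 2.66 CPM in controls (SD, n = 3 each; edgeR adjusted p = 5.6e-06). Myom3, a protein of the M-band, had 34.8 ± 4.34 CPM in Chd4 cKO libraries and 9.99 ± 2.94 CPM in controls, and Pgam2, muscle phosphoglycerate mutase, had 20.4 ± 2.30 CPM in Chd4 cKO libraries and 8.78 ± 2.15 CPM in controls (SD, n = 3 each; edgeR adjusted p = 0.000237 and 0.00247). Dysf, dysferlin of the muscle membrane, fell by 1.48 on the log2 scale (edgeR adjusted p = 0.00162). Of 9 upstream myogenic genes tested 4 rose and 1 fell. Tbx1, a T-box factor of head muscle precursors, fell, with a log2 fold change of -1.85 ± 0.49. Of 9 genes of the neuromuscular junction tested 3 rose, Rapsn by 1.91 ± 0.44, Chrne by 1.10 ± 0.28 and Chrnb1 by 0.66 ± 0.18 on the log2 scale, and Colq fell by 0.40 (edgeR adjusted p = 0.00877, 0.0139, 0.0177 and 0.0188). Of 7 cardiac genes tested 3 fell, Gata4, Tbx20 and Hand1, with log2 fold changes of -0.92 ± 0.17, -2.28 ± 0.50 and -1.27 ± 0.31.

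Smooth muscle and stromal markers also differed in Chd4 cKO libraries. Of the 13 tested 5 rose and 3 fell, where 14.3% of all genes tested rose and 14.3% fell. The summed level of the list was 859 to 1287 CPM in Chd4 cKO libraries and 724 to 772 CPM in controls. Acta2, smooth muscle alpha-actin, had 499 ± 158 CPM in Chd4 cKO libraries and 138 ± 5.93 CPM in controls, while Cnn1 had 5.73 ± 2.63 CPM in Chd4 cKO libraries and 22.1 ± 5.97 CPM in controls (SD, n = 3 each; edgeR adjusted p = 0.000125 and 0.00213). Desmin is also a protein of smooth muscle, and the part of smooth muscle or stromal RNA in its value was not tested. Of 16 relatives of the sarcomere genes used outside striated muscle 4 rose and 3 fell. Actb (cytoplasmic beta-actin) was lower by a log2 fold change of -0.68 ± 0.12, and Myl9, a light chain also of smooth muscle, was higher by 1.62 ± 0.31. Of 13 thymocyte genes tested 1 rose, Cd5, and the summed levels were 100.1 to 131 CPM in Chd4 cKO libraries and 93.3 to 122 CPM in controls.

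The difference between 2 knockout effects was tested gene by gene, which asks whether a gene responded differently in each. The 3 differences share libraries with each other and are not independent. The Fezf2 effect minus the Aire effect was called for 11 of 38 muscle genes, 10 positive and 1 negative, where 8.73% of all 16532 genes were positive and 3.85% negative. Of the 10, Myh6, Myh8 and Myl2 had 0 reads in libraries labelled Aire KO and entered the fit through other groups, so they had to come out positive and the count is no sign of a shared direction. Tnni1, Myh7 and Myh3 differed by 3.27 ± 0.41, 2.78 ± 0.37 and 5.54 ± 0.97, and Des by -1.34 ± 0.37, on the log2 scale (edgeR adjusted p = 7.16e-05, 0.000116, 0.00115 and 0.0256). The call on Des was lost in 7 of the 15 alternative fits, those without WT library A or C for Aire, library A or C labelled Aire KO, WT library C for Fezf2, or Fezf2 KO library A or C (adjusted p 0.00592 to 0.0792). The Chd4 effect minus the Aire effect was called for 16 of 42, 14 positive and 2 negative, where 11.4% of all 16169 genes were positive and 5.11% negative. Of the 14, Tnnc2, Myh8, Myh6, Myh2 and Myl2 had 0 reads in libraries labelled Aire KO and likewise had to come out positive. Myh3 and Myl3, positive in both differences from the Aire effect, had 3 and 2 reads there and also entered through other groups. Atp2a1, Pdlim3, Tnni1 and Des differed most clearly, by 4.72 ± 0.32, 2.75 ± 0.23, 2.70 ± 0.37 and 2.43 ± 0.30, and Actn3 and Pln were the negative ones, by -0.70 and -1.14. Of the 15 alternative fits the call on Actn3 was lost in 6 (adjusted p 0.00314 to 0.0783) and that on Pln in 7 (adjusted p 0.00831 to 0.081), each a fit without 1 library. Both were lost without WT library C for Aire, library B labelled Aire KO or Chd4 control library B. Actn3 was also lost without WT library B for Aire, library A labelled Aire KO or Chd4 cKO library A, and Pln without library C labelled Aire KO, Chd4 control library A or Chd4 cKO library A or C. The Chd4 effect minus the Fezf2 effect was called for 7 of 42, 5 positive and 2 negative, where 8.03% were positive and 6.87% negative. Des differed by 3.76 ± 0.32, Atp2a1 by 3.32 ± 0.31 and Pdlim3 by 1.90 ± 0.23, and Myh7 by -1.64 ± 0.32 on the log2 scale (edgeR adjusted p = 1.90e-07, 6.44e-07, 1.28e-05 and 0.00157). Chd4 libraries differ from the others in strain and in sequencing run, which each comparison within an experiment shares with its own control.

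**Figure D5:**
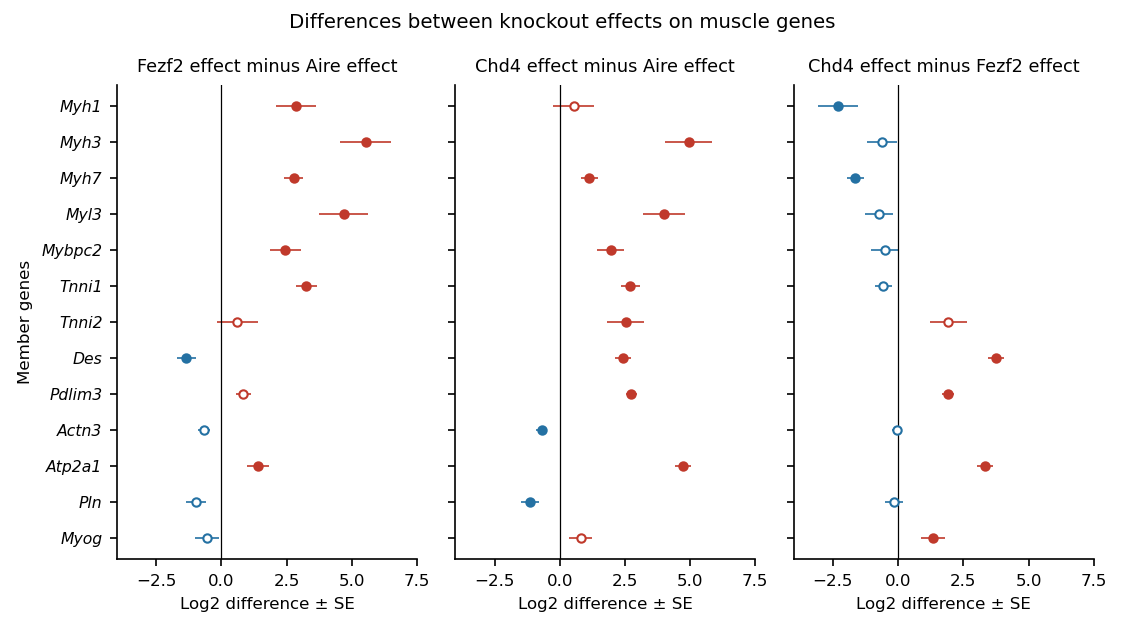
Log2 difference ± SE between knockout effects for 13 muscle genes called in at least 1 of the 3 differences, with genes down the page. Filled symbols passed edgeR at an adjusted p of 0.05, open symbols did not, red is positive and blue negative, and 5 called genes with 0 reads in libraries labelled Aire KO are left out. Tnni1, Myh3, Myl3 and Mybpc2 lie above 0 in both differences from the Aire effect, which share the same Aire libraries. Myh3 and Myl3 had only 3 and 2 reads in libraries labelled Aire KO. Des lies below 0 for Fezf2 minus Aire and above 0 for Chd4 minus Aire and Chd4 minus Fezf2.

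Set side by side, Des rose in Chd4 cKO libraries, fell in Fezf2 KO libraries, and overlapped with WT in libraries labelled Aire KO. Myh7 rose in Fezf2 KO and Chd4 cKO libraries and overlapped in libraries labelled Aire KO. Atp2a1 rose in Chd4 cKO libraries and fell in libraries labelled Aire KO.

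The WT sets give the spread between control groups of the same strain. Between the WT for Fezf2 and the WT for Aire, 36 muscle genes were tested and edgeR called 0, where 0.0958% of all 15656 genes tested were higher and 0.0319% lower in the WT for Fezf2. At an unadjusted p under 0.05 there were 6, and DESeq2 called 1, Mybpc1, lower. The wide spread of WT library B enters this fit as well. Thymocyte markers did differ, with summed levels of 443 to 807 CPM in the WT for Fezf2 and 74.9 to 163 CPM in the WT for Aire. Of these 15 genes edgeR called 4 and DESeq2 14, all higher in the WT for Fezf2, and their part in the Fezf2 and Fezf2 minus Aire values was not tested.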

How the data were processed

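Total RNA of sorted mTECs was extracted with a Maxwell 16 instrument and made into libraries with a SMART-seq v4 kit, per the labels' protocols. The submitters' processing notes name the build GRCm38 or mm10 and DESeq2. The authors deposited raw read counts per gene for each library, and the total exon reads were used here, per the file headers. No source used here names the aligner, the use of strand or the treatment of multi-mapped reads, so overlapping or similar genes (such as Tnnc2, Pln, Mb, Atp2a1, Myh6 and Myh7) are uncertain. Another 357 per-library columns in these tables were not used. Count columns name the group, not the replicate number, so libraries were assigned to groups only. Total exon counts were scaled by TMM and tested per experiment (3 against 3 libraries) with edgeR 4.0.16 in R 4.3.3: filterByExpr (minimum count 10), the quasi-likelihood F test, and Benjamini-Hochberg adjustment over all genes tested, with a threshold of 0.05. Differences of effects were contrasts in fits over 12 libraries (Fezf2 and Aire) or all 18. Fits were tested on simulated data.

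Alternatives were RLE scaling, no filter, DESeq2 1.42.0, leaving out each library in turn, and a spread estimated over all libraries. Leaving out libraries in the differences was added after seeing the data. A group with 0 reads was set to a floor of 3 reads over the group, and groups with 1 to 3 reads are given as a ratio with an exact 95% interval; both cover counting error only. Depths are 3571570 to 17220157 exon reads per library. The 48 genes, the 8 other lists of 133 genes and their tests were chosen with earlier results of these data known. Full values are given for each of the 48 genes called in a comparison, for the most abundant in each role per exon length, for those with 0 reads in 1 group and at least 10 in the other, and for Aire, Fezf2 and Chd4; from each other list up to 4 called genes with the smallest adjusted p are named, apart from some that are not reported here. Promoter windows are from RefSeq (GRCm38.p6), where 39 of the 48 symbols matched.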

Additional observations from a re-analysis of the deposited data

Results flagged for a closer look

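For 34 tests of a difference between 2 knockout effects on a muscle gene, the difference passed edgeR's quasi-likelihood test at an adjusted p of 0.05 over all genes; values are log2 differences, and the experiments share libraries across the 3 sets. The Chd4 effect was above the Aire effect for Atp2a1 by 4.72, Pdlim3 by 2.75, Tnni1 by 2.70, Tnni2 by 2.52, Des by 2.43, Mybpc2 by 1.96, Myh7 by 1.14, Myh3 by 4.95 and Myl3 by 4.01. It was also above it for Tnnc2 (9.82), Myh8 (8.2), Myh6 (6.55), Myh2 (6.47) and Myl2 (5.78), and it was below it for Actn3 and Pln (-0.70 and -1.14). The Fezf2 effect was above the Aire effect for Tnni1 by 3.27, Myh7 by 2.78, Mybpc2 by 2.46, Myh1 by 2.85, Atp2a1 by 1.41, Myh3 by 5.54 and Myl3 by 4.70. The same held for Myh6 (8.41), Myh8 (7.27) and Myl2 (5.25), and for Des the difference was -1.34. Tnnc2, Myh8, Myh6, Myh2 and Myl2 had 0 reads in libraries labelled Aire KO, so their fitted differences depend on the small count added in the fit and are no bound. Those of Myh3 and Myl3 rest on 3 and 2 reads there. The Chd4 effect was above the Fezf2 effect for Des by 3.76, Tnnc2 by 3.56, Atp2a1 by 3.32, Pdlim3 by 1.90 and Myog by 1.34, and below it for Myh1 and Myh7 (-2.32 and -1.64). Over the alternatives run, 24 of the 34 calls held in each one. These include calls on Tnnc2, Myh8, Myh6 and Myl2 in differences from the Aire effect, whose sign was fixed in advance by their 0 reads. They also include those on Myh3 and Myl3, so the count is no measure of how firm the calls are as a set. Groups hold 3 libraries, too few to test a single library as standing apart.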

How the results depend on the processing

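No paired analysis was possible because the count columns carry no replicate numbers. Of the 30 calls on muscle genes in the 3 knockout comparisons, 16 were made in all 10 alternatives, and no called value changed sign in any alternative. Among the 16 are Myh8, Myh3, Myl3 and Myl4 in libraries labelled Aire KO, which passed the filter through their WT libraries alone, so their sign was fixed in advance. In libraries labelled Aire KO 10 genes fell, 16 with no filter and 7 to 10 with 1 library left out, and 2 rose, 3 with no filter and 2 to 3 with 1 library left out. In Fezf2 KO libraries 2 rose, but 4 did with no filter, with DESeq2 or with the spread taken over all libraries, and 1 to 5 with 1 library left out; 1 fell, 0 to 1 with 1 library left out. In Chd4 cKO libraries 11 rose and 4 fell, 7 and 2 with the spread over all libraries, and 8 to 9 rose and 3 to 5 fell with 1 library left out. Between the WT sets edgeR called 0; with no filter 1 was higher (Sln), DESeq2 called 1 lower (Mybpc1), and with 1 library left out 0 to 1 were lower (Tpm2, without library B of the WT for Fezf2). Of the negative differences, Chd4 minus Aire had 2 (0 to 2 with 1 library left out), Chd4 minus Fezf2 had 2 (3 by DESeq2, 1 to 5 with 1 library left out), and Fezf2 minus Aire had 1 (2 by DESeq2, 0 to 2 with 1 library left out). Over all genes, 856 rose and 1401 fell in libraries labelled Aire KO, against 460 higher with the spread over all libraries and 2257 lower with no filter; 2164 rose and 2175 fell in Chd4 cKO libraries, against 1179 and 1196 with the spread over all libraries. In Fezf2 KO libraries 389 rose and 376 fell, against 663 and 724 with no filter, 681 and 717 by DESeq2, 666 and 794 with the spread over all libraries, and 102 to 1053 and 67 to 981 with 1 library left out. Between the WT sets 15 were higher and 5 lower, against 313 and 142 with no filter, 283 and 150 by DESeq2, 164 and 128 with the spread over all libraries, and 0 to 312 and 0 to 324 with 1 library left out. The cause of these shifts was not tested. Depth limits 17 of the 48 genes in libraries labelled Aire KO, 11 in Fezf2 KO libraries and 10 in Chd4 cKO libraries, which had too few reads to test.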
